A study of Mus musculus with 15 samples.

Results

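Genes of the cell cycle were followed in retinal endothelial cells of adult mice that lack a part of the Norrin signalling pathway. The set was a list of 55 gene symbols, of which 30 act in mitosis, 18 in S phase, 3 are D cyclins and 4 are inhibitors of cyclin-dependent kinases. Of the 55 genes, 54 were measured, out of 18194 genes in all, and they carried 129 of the 45101 probe sets of the array. Ccnb1, which encodes cyclin B1, had no probe set that named it alone, which left 29 mitosis genes. The rule names the genes by symbol and sets no cutoff on a measured value, although the list was drawn up with earlier results of these data known.

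Cells had been purified with beads carrying an antibody to PECAM, a surface protein of endothelial cells. They came from adult retinas of Fz4-/- mice (3 arrays), Lrp5-/- mice (3 arrays), Norrin KO mice (3 arrays) and wild type mice (6 arrays). All animals were described as of a mixed C57Bl6/129 background and mixed gender, no treatment is given, and age is given only as adult. Each array held total RNA from a pool of 5 to 10 mice, so a p-value here reflects how pools vary, and single animals within a pool are not resolved. Norrin is a secreted ligand of the receptor Frizzled4 (gene Fzd4) and its co-receptor Lrp5, and the deletions in these labels are not stated to be limited to endothelial cells.

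A cell that divides copies its DNA in S phase and then separates the copies in mitosis. D cyclins and their kinases start this sequence in G1 by inactivating the retinoblastoma family of pocket proteins, which frees E2F factors to switch on S phase genes; a later wave of genes, bound by the MuvB, B-Myb and FoxM1 proteins, serves mitosis. Inhibitors such as p21, p27 and p57 hold the kinases back, and vessel endothelium in an adult retina is known as a tissue in which few cells divide. Many of the mitotic genes have almost no transcript in cells outside the cycle, and their level is therefore widely used as a measure of dividing cells. In RNA from bulk samples, more dividing cells and more RNA per dividing cell cannot be told apart.

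Values are the deposited log2 signals, on which a step of 1 is a doubling of signal, and signals of different genes are not compared as amounts. Median array signal ranged from 5.89 to 6.04. Quartiles were narrowest on Lrp5-/- array 1 (4.25 to 8.11) and wild type array 4 (4.29 to 8.07). On the other arrays the lower quartile was 3.90 to 4.11 and the upper 8.26 to 8.46. Fzd4 was at 4.22 ± 0.30 (SD, n = 3) in Fz4-/- cells and 12.09 ± 0.20 (n = 6) in wild type, and Lrp5 was at 4.91 ± 0.45 (n = 3) in Lrp5-/- cells and 7.69 ± 0.27 (n = 6) in wild type. Ndp, the Norrin gene, was low on all arrays, at 3.88 to 4.96, and does not check the Norrin KO label. The endothelial genes Pecam1 (10.91 to 11.94) and Cdh5 (11.37 to 12.18) were high on all 15 arrays. Lrp5-/- array 1, wild type array 4 and Lrp5-/- array 3 stood apart on the second principal component, with scores of 77.4, 34.0 and 29.2 against -29.5 to 15.7 on the other arrays. Xist, a transcript of female cells, was at 4.12 to 4.98 in Norrin KO, 11.42 to 11.88 in Fz4-/-, 4.76 to 12.21 in Lrp5-/- and 4.88 to 12.27 in wild type. Eif2s3y, a gene of the Y chromosome, was at 9.77 to 10.32 in Norrin KO and 3.25 to 9.63 in Fz4-/-. In Lrp5-/- it was at 3.21 to 10.48 and in wild type at 2.69 to 10.29. Pools thus differed in sex makeup, and between Fz4-/- and Norrin KO sex makeup differed along with genotype. The gap between the 3′ and 5′ signals of the actin control, a sign of RNA integrity, was 1.05 to 2.92 in Norrin KO and 0.56 to 1.04 in the other groups.

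On average over the 3 mutant genotypes, most genes of mitosis, a smaller share of the S phase genes and cyclin D1 were higher than in wild type, and the inhibitors Cdkn1b and Cdkn1c were lower. In a fit with the replicate number of the arrays as a block, Cdkn1b and the S phase genes Mcm5, Mcm3, Pcna and Rrm2 did not pass. Taken alone, Lrp5-/- had 8 of 29 mitosis genes higher, Fz4-/- 19 and Norrin KO 20, where 5.63%, 10.7% and 16.7% of all genes rose. Cdkn1c was not lower in Norrin KO. Cdkn1b passed in Norrin KO alone, but no comparison between mutants called it. Comparing the average of the 3 mutant genotypes with wild type, 29 of the 54 genes rose and 4 fell at an adjusted p under 0.05 (limma), where 14.0% of all genes rose and 9.91% fell. By group, 21 of 29 mitosis genes rose and 1 fell, 7 of 18 S phase genes rose and 1 fell, 1 of 3 D cyclins rose, and 2 of 4 inhibitors fell. The median log2 difference was 1.00 for mitosis, 0.36 for S phase, 0.06 for the D cyclins and -0.24 for the inhibitors, against -0.01 over all genes. Birc5 rose 7.26-fold, Cdk1 6.16-fold and Ccnb2 5.26-fold, and Ccnd1 rose 2.30-fold. The inhibitor Cdkn1c fell by 0.55 on the log2 scale, and Cdkn1b fell by 0.36.

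**Figure D1:**
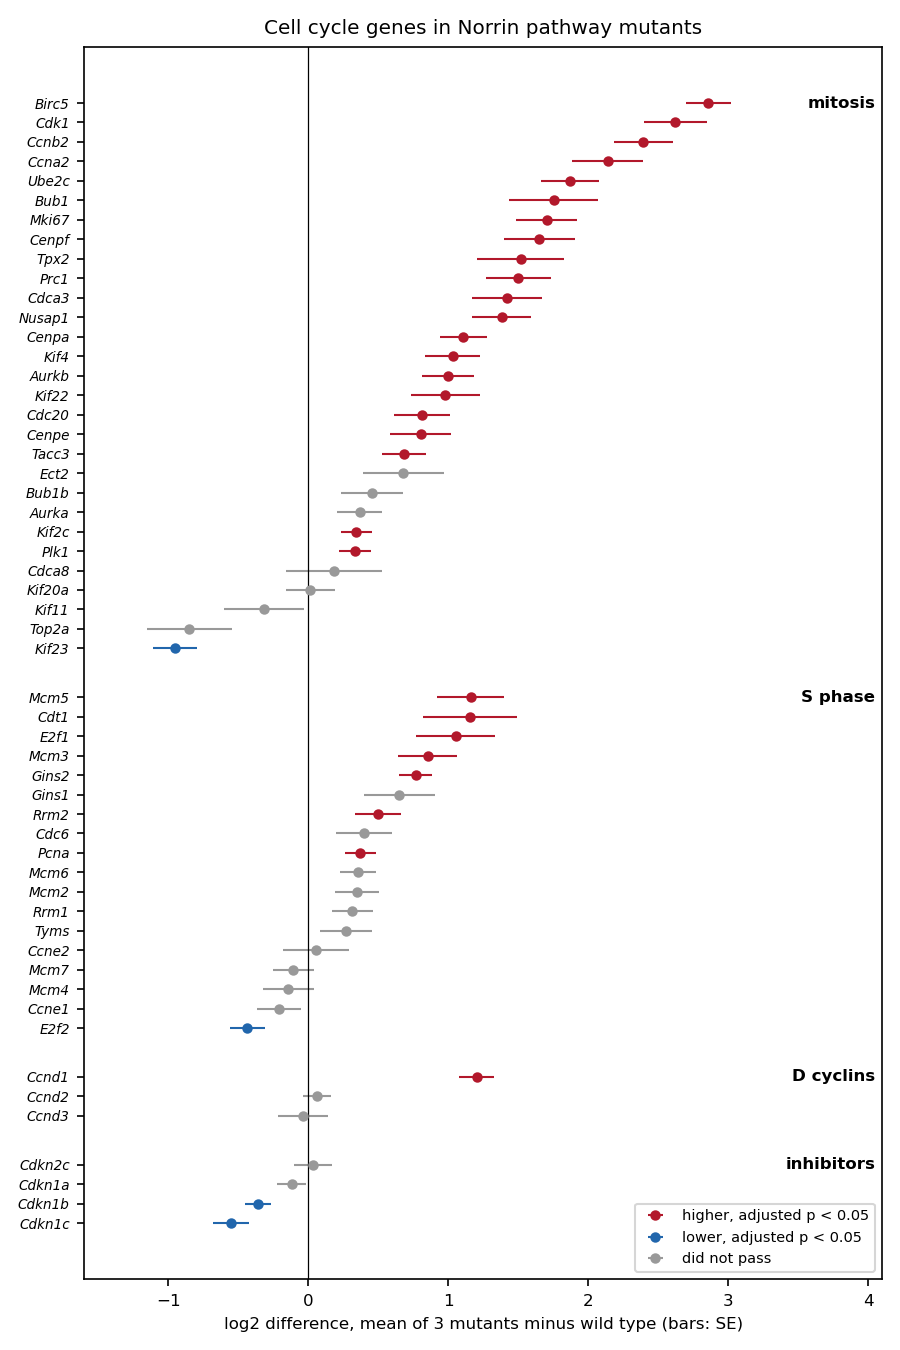
Log2 difference between the average of the 3 mutant genotypes and wild type (horizontal axis) for each of the 54 genes, with bars of 1 standard error; red and blue mark genes past an adjusted p of 0.05. Mitosis genes reach from -0.95 (Kif23) to 2.86 (Birc5), while S phase genes stay between -0.43 (E2f2) and 1.16 (Mcm5).

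The 6 wild type arrays had a mean signal over the 29 mitosis genes of 5.78 to 6.12, with a median of 5.9. Fz4-/- arrays were at 6.84, 7.38 and 7.05, Lrp5-/- arrays at 6.61, 6.74 and 6.60, and Norrin KO arrays at 7.05, 6.71 and 7.32. All 9 mutant arrays were thus above all 6 wild type arrays, with the Lrp5-/- arrays among the lowest of the mutants. The 18 S phase genes averaged 6.77 to 7.55 in wild type, 7.63 to 7.84 in Fz4-/-, 7.26 to 7.60 in Lrp5-/- and 7.63 to 7.87 in Norrin KO. For these genes Fz4-/- and Norrin KO arrays were above the wild type range and Lrp5-/- arrays overlapped it. The 4 inhibitors averaged 10.04 to 10.20 in wild type, 9.82 to 9.93 in Fz4-/-, 9.68 to 9.95 in Lrp5-/- and 9.92 to 10.10 in Norrin KO.

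**Figure D2:**
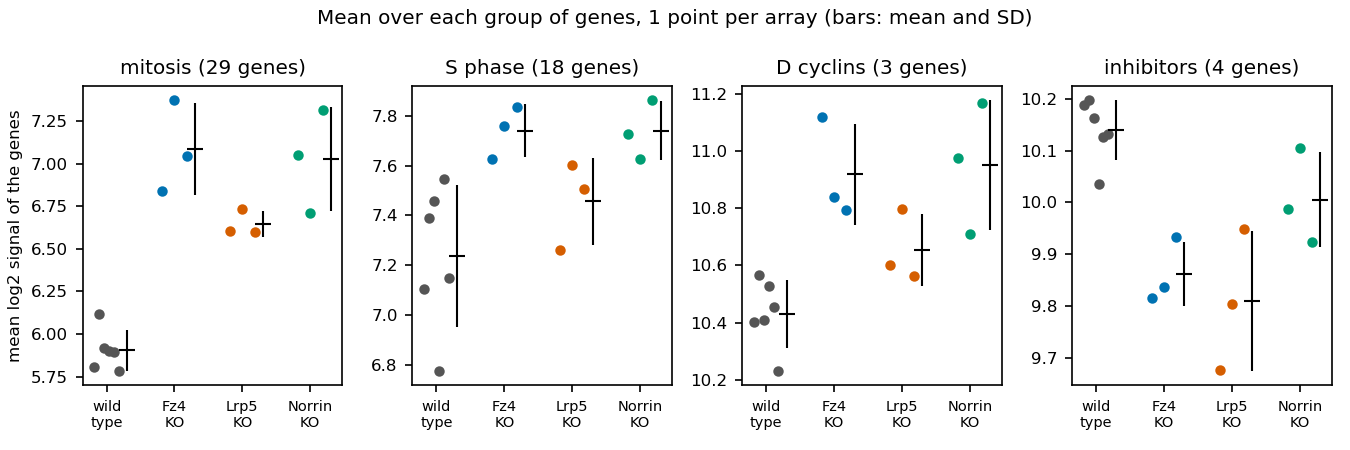
Mean log2 signal over the genes of each group (vertical axis), 1 point per array, with the mean and SD of each genotype as bars; axes do not start at 0. The mitosis means of all 9 mutant arrays (6.60 to 7.38) lie above those of the 6 wild type arrays (5.78 to 6.12), and the S phase means of the Lrp5-/- arrays (7.26 to 7.60) overlap wild type (6.77 to 7.55).

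Promoters are shown for the mitosis genes with the largest rises, because genes of the mitotic wave are known to share short promoter elements. These are the CHR (cell cycle genes homology region, TTTGAA or TTTAAA) and the CCAAT box (CCAAT), and S phase genes are known for E2F sites, searched as TTTGGCGC, TTTCGCGC, TTTCCCGC and TTTGCCGC. Both strands of the 250 bases before each start site were searched in the RefSeq promoters of GRCm38.p6, with overlapping matches kept. At least 1 promoter was found for 44 of the 55 genes, Ccnb1 among them, and a gene counted as holding an element if any of its promoters did. The 4 promoters that follow belong to the genes with the largest rises among those found (Birc5 at chr11:117848987-117849236, plus strand; Cdk1 at chr10:69352913-69353162, minus strand; Ccnb2 at chr9:70421555-70421804, minus strand; Ube2c at chr2:164769679-164769928, plus strand). They are written 5′ to 3′ on the strand of the gene, and capitals mark matches to any of the elements on either strand.
Birc5: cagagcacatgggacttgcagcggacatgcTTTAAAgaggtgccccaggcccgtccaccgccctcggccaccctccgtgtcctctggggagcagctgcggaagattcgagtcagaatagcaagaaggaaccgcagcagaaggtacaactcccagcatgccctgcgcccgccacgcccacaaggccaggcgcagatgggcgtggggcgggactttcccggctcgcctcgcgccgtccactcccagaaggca
Cdk1: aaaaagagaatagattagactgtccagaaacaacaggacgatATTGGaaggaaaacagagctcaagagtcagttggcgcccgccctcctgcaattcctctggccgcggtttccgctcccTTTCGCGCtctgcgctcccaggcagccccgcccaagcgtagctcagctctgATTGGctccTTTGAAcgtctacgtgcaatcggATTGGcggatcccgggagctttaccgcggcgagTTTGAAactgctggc
Ccnb2: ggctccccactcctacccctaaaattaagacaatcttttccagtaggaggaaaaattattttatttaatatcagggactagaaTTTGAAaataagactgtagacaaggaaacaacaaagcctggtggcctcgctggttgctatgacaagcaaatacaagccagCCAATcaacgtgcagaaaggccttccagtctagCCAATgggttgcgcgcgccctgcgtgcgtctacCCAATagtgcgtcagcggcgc
Ube2c: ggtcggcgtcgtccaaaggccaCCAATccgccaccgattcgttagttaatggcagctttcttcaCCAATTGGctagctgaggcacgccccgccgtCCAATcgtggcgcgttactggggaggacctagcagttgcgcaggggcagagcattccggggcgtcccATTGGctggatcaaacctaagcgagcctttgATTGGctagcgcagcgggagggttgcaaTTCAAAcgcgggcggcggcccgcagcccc
Cdk1 held the CHR TTTGAA at -71 to -66 and at -15 to -10 from the start, 3 CCAAT boxes on the opposite strand and 1 E2F site, TTTCGCGC, at -131 to -124. In Ccnb2, 3 CCAAT boxes stood at -87 to -83, -54 to -50 and -21 to -17, and the CHR at -167 to -162. Ube2c held a CHR on the opposite strand at -29 to -24 with 6 CCAAT boxes, while Birc5 held only a CHR, TTTAAA, at -220 to -215 in this window.

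A CHR was found in 16 of 26 mitosis genes (61.5%), in 4 of 14 S phase genes (28.6%) and in 28.1% of the 27025 genes of the promoter table. CCAAT boxes stood in 22 of 26 mitosis genes (84.6%), 9 of 14 S phase genes (64.3%) and 37.5% of all genes, and both elements together in 14 mitosis genes (53.8%), 3 S phase genes (21.4%) and 10.1% of all genes. E2F sites were found in 1 mitosis gene (3.85%), 4 S phase genes (28.6%) and 2.16% of all genes. The median GC content of the windows was 59.6% for mitosis, 56.8% for S phase and 52.4% for all promoters, and these shares were not adjusted for it. Split by the array result, a CHR stood in 12 of 18 mitosis genes that rose and in 3 of 6 that did not pass. The shares describe letters in a window and say nothing of binding in these cells.

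Among the mitosis genes, Birc5, which encodes survivin, a part of the chromosomal passenger complex, had wild type signals of 5.14 (lowest), 5.68 (median) and 5.91 (highest). Its Fz4-/- arrays were at 8.36, 9.24 and 8.79, its Lrp5-/- arrays at 7.58, 8.33 and 8.27, and its Norrin KO arrays at 8.62, 8.45 and 8.75. Every mutant array was above every wild type array, and the lowest mutant value was Lrp5-/- array 1. The difference of the mutant mean from wild type was 2.86 ± 0.16 (log2, SE; limma adjusted p = 9.07e-09), with 3.17 in Fz4-/-, 2.43 in Lrp5-/- and 2.98 in Norrin KO.

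Cdk1, the kinase that drives entry into mitosis, had wild type signals of 5.30 to 6.44 with a median of 6.01. The Fz4-/- arrays read 8.54, 9.22 and 8.38, the Lrp5-/- arrays 7.99, 8.33 and 8.17, and the Norrin KO arrays 8.28, 8.79 and 9.32. No mutant array came within 1 log2 unit of wild type. The mean difference was 2.62 ± 0.22 (adjusted p = 7.57e-07), and all 3 mutants passed on their own, at 2.78, 2.23 and 2.86 in Fz4-/-, Lrp5-/- and Norrin KO.

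Its cyclin partner Ccnb2 (cyclin B2) was at 3.95 to 5.53 in wild type, with a median of 4.44. Signals were 7.11, 7.45 and 7.28 in Fz4-/-, 5.88, 6.59 and 6.42 in Lrp5-/-, and 7.18, 7.07 and 7.69 in Norrin KO. The groups did not overlap, and the Lrp5-/- arrays were the 3 lowest of the mutants. Ccnb2 rose by 2.39 ± 0.21 (adjusted p = 9.65e-07). Ccna2, cyclin A2 of late S phase and mitosis, was at 5.12 to 6.52 in wild type (median 5.96), at 7.83, 8.58 and 8.14 in Fz4-/-, 6.66, 7.93 and 7.37 in Lrp5-/-, and 8.95, 7.96 and 8.78 in Norrin KO. Its Lrp5-/- array 1 was close to the top of wild type, and the groups still did not overlap. The mean difference was 2.14 ± 0.25 (adjusted p = 1.93e-05); the rise in Lrp5-/- alone, of 1.44 (adjusted p = 0.0115), did not pass without Lrp5-/- array 2 (adjusted p = 0.0683).

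Ube2c, the ubiquitin-conjugating enzyme of the anaphase-promoting complex, was at 5.85 to 7.07 in wild type (median 6.48). It was at 8.05, 9.35 and 8.63 in Fz4-/-, 7.87, 8.18 and 8.06 in Lrp5-/-, and 8.15, 8.46 and 8.64 in Norrin KO. Every mutant array was above every wild type array. Ube2c rose by 1.87 ± 0.21 (adjusted p = 1.06e-05). Mki67, which encodes the proliferation antigen Ki-67, was at 6.18 to 7.55 in wild type (median 6.80), at 8.36, 9.15 and 8.59 in Fz4-/-, 9.07, 8.39 and 8.10 in Lrp5-/-, and 8.57, 8.09 and 8.45 in Norrin KO. Here too the groups did not overlap, and Lrp5-/- array 1 was the second highest of all. Mki67 rose by 1.70 ± 0.22 (adjusted p = 3.78e-05), with 1.88, 1.69 and 1.54 in Fz4-/-, Lrp5-/- and Norrin KO, each past the threshold.

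**Figure D3:**
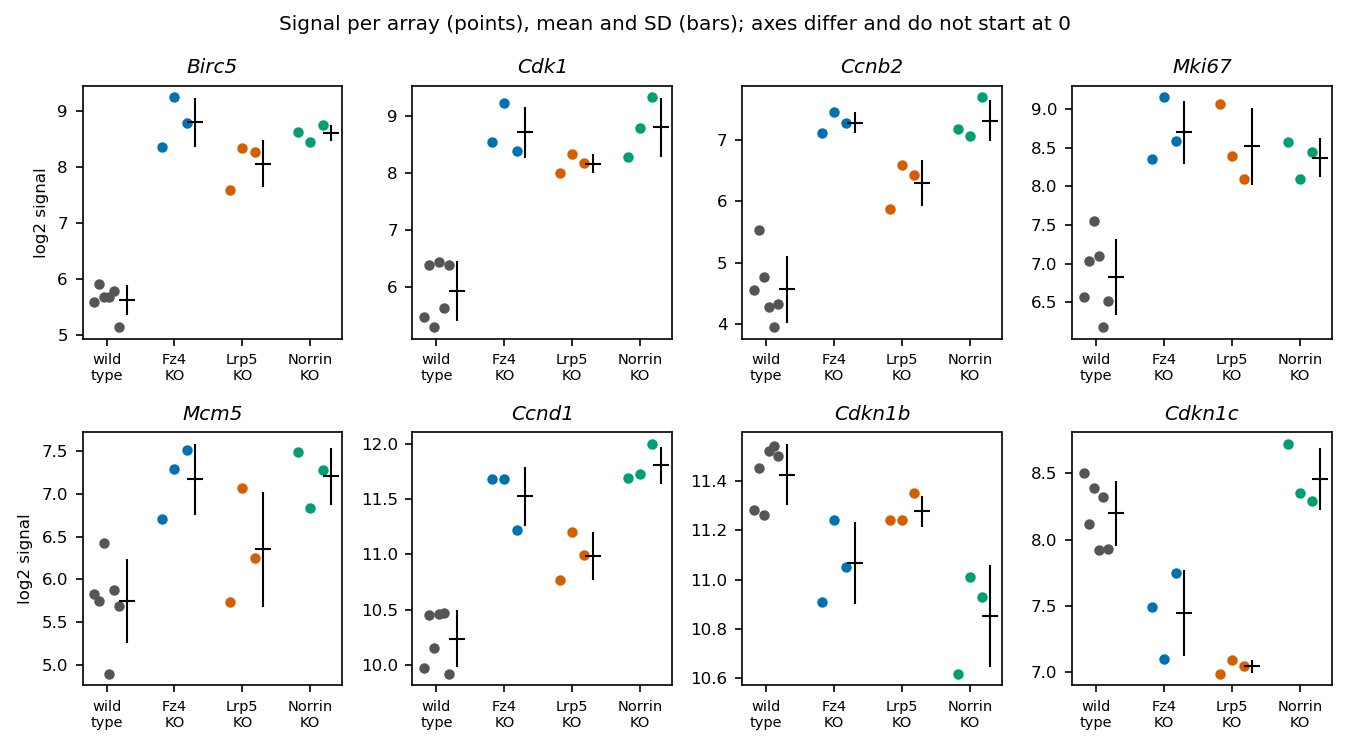
Log2 signal of 8 genes on each array (points) with the mean and SD of each genotype (bars); axes differ between panels and do not start at 0. Birc5, Cdk1, Ccnb2, Mki67 and Ccnd1 separate all 9 mutant arrays from wild type, while Mcm5 overlaps and Cdkn1c is low in Fz4-/- (7.10 to 7.75) and Lrp5-/- (6.99 to 7.09) but not in Norrin KO (8.29 to 8.72).

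Cenpf, a kinetochore protein, was dim in wild type at 3.16 to 3.96 (median 3.64). It read 5.05, 5.92 and 5.96 in Fz4-/-, 4.76, 4.63 and 4.58 in Lrp5-/-, and 6.11, 4.26 and 5.86 in Norrin KO. All mutant arrays were above wild type, Norrin KO array 2 by the least. The mean difference was 1.65 ± 0.25 (adjusted p = 2.28e-04), with 2.06 in Fz4-/- and 1.82 in Norrin KO past the threshold and 1.07 in Lrp5-/- not (adjusted p = 0.0538). Bub1, a kinase of the spindle checkpoint, was at 3.28 to 5.5 in wild type (median 4.03) and at 5.07 to 6.79 over the 9 mutant arrays, of which 7 were above all of wild type. Its mean difference was 1.75 ± 0.32 (adjusted p = 9.02e-04). The rise in Lrp5-/-, of 1.54 (adjusted p = 0.0282), did not pass when Lrp5-/- array 1 (adjusted p = 0.114), Lrp5-/- array 2 (0.102), or wild type array 2 (0.0556), 5 (0.05) or 6 (0.0514) was left out.

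Tpx2, which activates the kinase Aurora A at the spindle, was at 5.13 to 6.99 in wild type (median 5.81), with 7 of 9 mutant arrays, from 6.43 to 8.31, above all of wild type. Tpx2 rose by 1.52 ± 0.31 (adjusted p = 0.00225). Prc1, which bundles the microtubules of the central spindle, was at 5.93 to 7.39 in wild type (median 7.05). Its signals were 8.17, 8.91 and 8.38 in Fz4-/-, 7.20, 8.06 and 7.71 in Lrp5-/-, and 8.81, 8.68 and 9.09 in Norrin KO, and Lrp5-/- array 1 alone fell within the wild type range. Its mutant mean was higher by 1.5 ± 0.23 (adjusted p = 2.22e-04), and 0.82 in Lrp5-/- alone did not pass (adjusted p = 0.105). Nusap1, a spindle protein, rose by 1.38 ± 0.21 in the mutant mean (adjusted p = 2.18e-04), with 1.75 in Fz4-/- and 1.94 in Norrin KO past the threshold and 0.46 in Lrp5-/- not (adjusted p = 0.372). Aurkb, the kinase of the chromosomal passenger complex, was at 3.74 to 4.25 in wild type and at 4.39 to 6.26 in the mutants, with no overlap, and rose by 1.00 ± 0.18 (adjusted p = 9.92e-04).

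The other mitosis genes that rose by more than 0.5 were Cdca3, Cenpa, Kif4, Kif22, Cdc20, Cenpe and Tacc3, with log2 differences from 0.68 (Tacc3) to 1.42 (Cdca3). Plk1, the Polo kinase of mitosis, rose by 0.33 ± 0.11 (adjusted p = 0.0427) with overlapping arrays, 5.26 to 5.67 in wild type and 5.24 to 6.56 in the mutants. That call ended when any of 9 arrays was left out: Fz4-/- 2 or 3, Lrp5-/- 1 or 3, Norrin KO 3, and wild type 1, 2, 3 or 6, with adjusted p up to 0.11. It also ended when each array was centred on its median (adjusted p = 0.0607). The rise of Kif2c, a depolymerase of microtubules, by 0.34 (adjusted p = 0.0313) likewise ended without any of 7 arrays, Fz4-/- 1 or 2, Norrin KO 3, or wild type 2, 3, 4 or 6, with adjusted p up to 0.0689. Genes that did not pass were Aurka (0.37), Bub1b (0.46), Cdca8 (0.18), Ect2 (0.68), Kif20a (0.01), Kif11 (-0.32) and Top2a (-0.85).

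Of the 29 mitosis genes, 8 had all 9 mutant arrays above all 6 wild type arrays, as did 4.76% of all genes, and 1 had all mutant arrays below, as did 3.53%. The 8 were Birc5, Cdk1, Ccnb2, Ccna2, Ube2c, Mki67, Cenpf and Aurkb. The gene below was Kif23, a motor protein of the midbody in cytokinesis, chosen for description after its values were seen. Kif23 had wild type signals of 8.57 to 9.56 (median 8.89), against 7.77, 8.12 and 7.92 in Fz4-/-, 8.0, 8.32 and 8.18 in Lrp5-/-, and 8.03, 7.77 and 8.22 in Norrin KO. It fell by 0.95 ± 0.16 on the log2 scale (adjusted p = 4.09e-04) and passed in each mutant, although in Lrp5-/- not without array 1 (adjusted p = 0.0932) or array 3 (0.062) of that genotype. The promoter of Kif23 (chr9:61946800-61947049, minus strand) is shown because the gene went against its group; capitals mark the elements as above.
Kif23: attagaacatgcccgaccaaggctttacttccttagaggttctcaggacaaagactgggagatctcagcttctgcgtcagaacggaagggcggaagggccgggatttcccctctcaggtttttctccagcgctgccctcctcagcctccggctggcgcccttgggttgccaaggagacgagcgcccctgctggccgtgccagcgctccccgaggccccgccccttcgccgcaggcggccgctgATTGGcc
It held no CHR and 1 CCAAT box, on the opposite strand at -7 to -3.

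**Figure D4:**
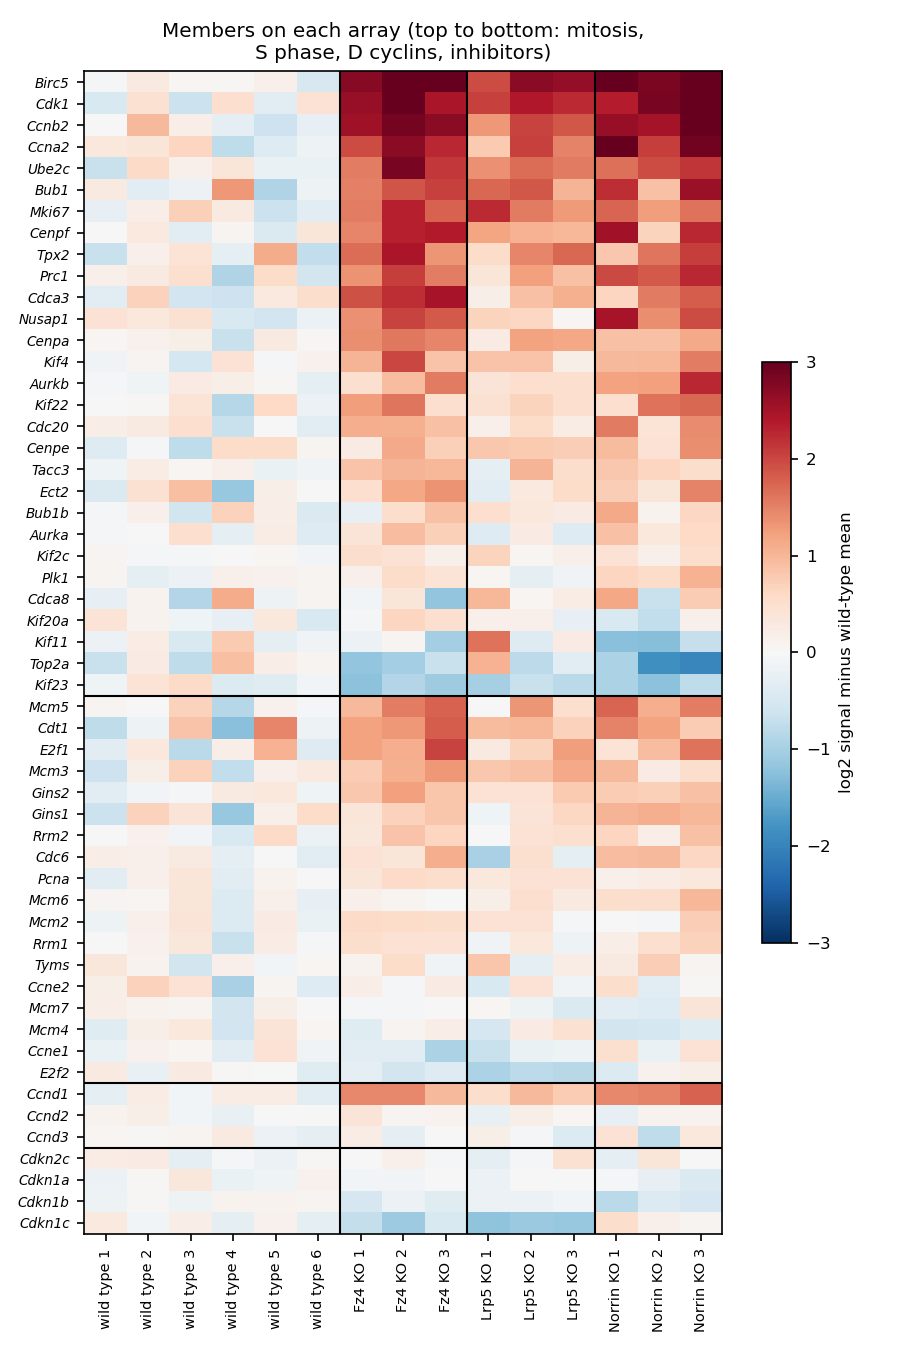
Log2 signal minus the wild type mean (colour, red higher and blue lower) of the 54 genes (rows) on the 15 arrays (columns), with lines between the gene groups and genotypes. Red fills the upper rows in all 9 mutant columns, while the rows of Kif11, Top2a and Kif23 at the bottom of the mitosis block are blue in most mutant columns and S phase rows are paler.

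For 40 genes more than 1 probe set was present, and the brightest stood for the gene. Top2a, the topoisomerase that untangles chromosomes before they separate, was the only gene with probe sets past the threshold in opposite directions. Its brightest probe set was at 7.58 in wild type, 6.63 in Fz4-/-, 7.56 in Lrp5-/- and 6.00 in Norrin KO, as group means. It fell by 1.58 in Norrin KO (adjusted p = 0.0108 over genes), but not without Norrin KO array 3 (adjusted p = 0.0548). The second probe set went from 5.10 in wild type to 7.25, 6.82 and 7.21 in Fz4-/-, Lrp5-/- and Norrin KO, a rise of 1.99 in the mutant mean. The third was dim in every group, at 3.75 to 3.98.

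Kif11, the motor that pushes spindle poles apart, also had probe sets that disagreed, but not past the threshold in opposite directions. Its brightest probe set differed by -0.32 and did not pass, whereas another rose by 1.41 (adjusted p = 0.0058 over probe sets) and a further one by 0.99 (adjusted p = 0.0077). With the mean of all probe sets in place of the brightest, the difference of Top2a was 0.36 (adjusted p = 0.0336) and that of Kif11 was 0.70 (adjusted p = 0.0172). Cdca8, of the chromosomal passenger complex, did not pass on its brightest probe set, and its other probe sets rose by 0.52 and 1.13. For Bub1b, a checkpoint kinase, a probe set other than the brightest rose by 0.80 (adjusted p = 0.0036). Kif23 was lower on all 3 of its probe sets, by -0.95, -0.75 and -0.37, of which the second did not pass (adjusted p = 0.108). The position of the probes within each transcript was not used here.

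**Figure D5:**
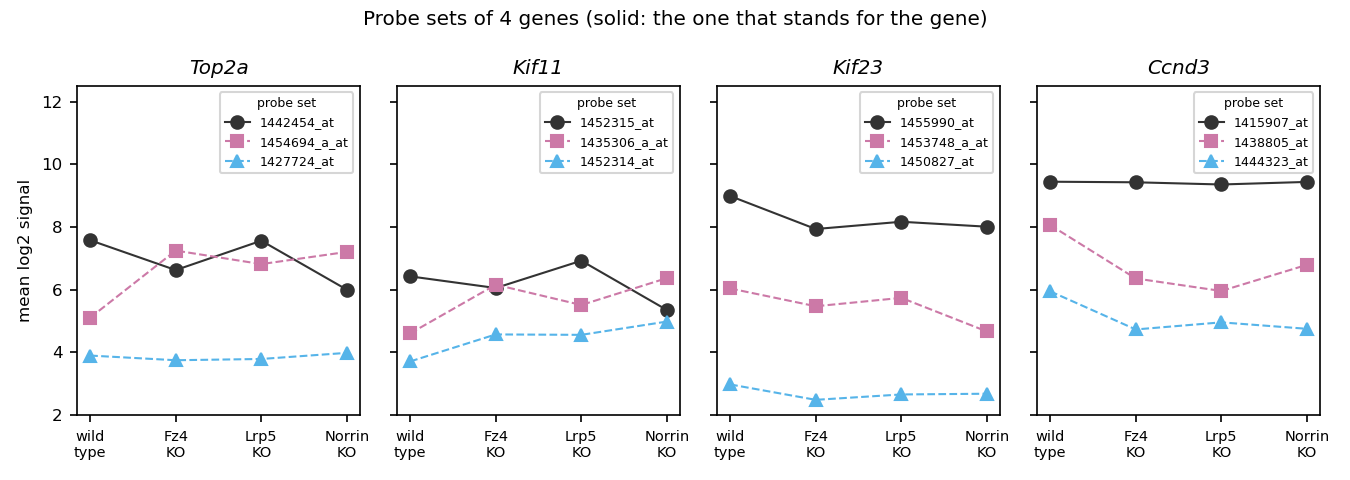
Mean log2 signal of each probe set (vertical axis) in the 4 genotypes for Top2a, Kif11, Kif23 and Ccnd3; the solid line is the brightest probe set, which stood for the gene. The probe sets of Top2a cross, one falling to 6.00 in Norrin KO and another rising from 5.10 in wild type to 7.21, while those of Kif23 all run downwards from wild type.

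Among the S phase genes, Mcm5, a subunit of the replicative helicase, was at 4.90 to 6.43 in wild type (median 5.79), at 6.71, 7.29 and 7.51 in Fz4-/-, 5.74, 7.07 and 6.25 in Lrp5-/-, and 7.49, 6.84 and 7.28 in Norrin KO. Fz4-/- and Norrin KO arrays were all above wild type, and Lrp5-/- arrays 1 and 3 lay within its range. The mean difference was 1.16 ± 0.24 (adjusted p = 0.00227), with 1.42 in Fz4-/- and 1.45 in Norrin KO past the threshold and 0.61 in Lrp5-/- not (adjusted p = 0.266). With the replicate number as a block, the mean difference was 0.903 and did not pass (limma adjusted p = 0.0585). The promoter of Mcm5 (chr8:75109259-75109508, plus strand) is shown as that of the S phase gene with the largest difference.
Mcm5: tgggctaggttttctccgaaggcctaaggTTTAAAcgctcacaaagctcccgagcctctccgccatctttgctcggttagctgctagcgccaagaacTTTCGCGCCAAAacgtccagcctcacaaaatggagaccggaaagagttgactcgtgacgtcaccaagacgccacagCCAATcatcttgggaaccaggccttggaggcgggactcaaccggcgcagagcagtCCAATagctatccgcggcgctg
It held E2F sites TTTCGCGC at -153 to -146 and, on the opposite strand, TTTGGCGC at -149 to -142, which overlap, with CCAAT boxes at -77 to -73 and -22 to -18 and a CHR at -221 to -216.

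Mcm3, of the same helicase, was at 7.57 to 9.0 in wild type (median 8.47) and at 8.54 to 9.59 in the mutants, of which 7 arrays were above wild type. It rose by 0.85 ± 0.21 (adjusted p = 0.00778), and all 5 of its probe sets differed in that direction, by 0.54 to 0.89. With the replicate number as a block, Mcm3 rose by 0.764 and did not pass (limma adjusted p = 0.0621). Of the 18 S phase genes, 1 had all mutant arrays above all wild type arrays, as did 4.76% of all genes. This was Gins2, of the GINS complex that works with the helicase, at 5.45 to 6.08 in wild type and 6.21 to 6.99 in the mutants. It rose by 0.77 ± 0.12 (adjusted p = 2.20e-04), with 0.96, 0.56 and 0.79 in Fz4-/-, Lrp5-/- and Norrin KO.

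Cdt1, the licensing factor that loads the helicase, was spread over 6.66 to 9.38 in wild type (median 7.75) and at 8.60 to 9.73 in the mutants. Wild type array 5 was above most mutant arrays. The mean difference of 1.16 ± 0.34 (adjusted p = 0.0218) did not pass without wild type array 1 (adjusted p = 0.0591). E2f1, the transcription factor of S phase genes, was at 3.75 to 5.62 in wild type and 4.83 to 6.59 in the mutants, and rose by 1.05 ± 0.28 on its brightest probe set (adjusted p = 0.0140). With the mean of its probe sets the difference of E2f1 was 0.32 and did not pass (adjusted p = 0.0641), and the call also ended without Lrp5-/- arrays 1 and 3 and wild type array 4 together (adjusted p = 0.0508). E2f2, of the same family, went the other way, with wild type at 5.04 to 5.68 and mutants at 4.45 to 5.58, a fall by 0.43 ± 0.13 (adjusted p = 0.0198) that did not pass without wild type array 1 (adjusted p = 0.0544). In Lrp5-/-, E2f2 read 4.45, 4.61 and 4.56, all below wild type, and the difference there was -0.86 (adjusted p = 0.00317).

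Pcna, the sliding clamp of DNA polymerase, was bright on every array, at 11.89 to 12.60 in wild type and 12.37 to 12.80 in the mutants. It rose by 0.37 ± 0.11 (adjusted p = 0.0256), but not without wild type array 1 (adjusted p = 0.0681) or 4 (0.0583). Rrm2, the regulated subunit of ribonucleotide reductase, was at 8.76 to 9.80 in wild type and 9.23 to 10.09 in the mutants and rose by 0.50 ± 0.16 (adjusted p = 0.0360). That call ended without any of 11 arrays, which were all but Fz4-/- 1, Lrp5-/- 1, Norrin KO 2 and wild type 5, with adjusted p up to 0.0826, and when each array was centred on its median (adjusted p = 0.0579). Mcm2, a further helicase subunit, was at 6.22 to 7.02 in wild type and 6.57 to 7.37 in the mutants, and its difference of 0.35 did not pass (adjusted p = 0.126), whereas its second probe set rose by 0.82 (adjusted p = 0.0312). The remaining S phase genes that did not pass in the mutant mean ranged from -0.21 (Ccne1) to 0.65 (Gins1). Without wild type array 1, 4 S phase genes rose in place of 7. With the replicate number as a block, Mcm5, Mcm3, Pcna (limma adjusted p = 0.158) and Rrm2 (0.106) did not pass. Leaving out Lrp5-/- arrays 1 and 3 and wild type array 4 together left 1 Lrp5-/- array. The differences of Cdt1, E2f1, Mcm3, Rrm2, Pcna and Cdc6 were then 0.948, 1.068, 0.690, 0.449, 0.321 and 0.587.

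The D cyclins parted. Ccnd1, cyclin D1, was at 9.92 to 10.47 in wild type (median 10.30), at 11.68, 11.68 and 11.22 in Fz4-/-, 10.77, 11.20 and 10.99 in Lrp5-/-, and 11.69, 11.73 and 12 in Norrin KO. All mutant arrays were above all wild type arrays, with the Lrp5-/- arrays lowest and the Norrin KO arrays highest. Ccnd1 rose by 1.20 ± 0.13 (adjusted p = 6.42e-06), with 1.29, 0.75 and 1.57 in Fz4-/-, Lrp5-/- and Norrin KO, and its other probe sets rose by 1.32 and 1.12. The call in Lrp5-/- (adjusted p = 0.00899) did not hold without Lrp5-/- array 2 (adjusted p = 0.05). Ccnd2 was at 11.40 to 11.78 in wild type and 11.37 to 12 in the mutants, a difference of 0.06 ± 0.10 (adjusted p = 0.718). Ccnd3 was at 9.17 to 9.72 in wild type and 8.68 to 9.87 in the mutants on its brightest probe set, with a difference of -0.04 ± 0.18 (adjusted p = 0.907). A pair of dimmer probe sets of Ccnd3 fell by 1.69 and 1.14 (adjusted p = 0.0011 and 0.0031 over probe sets), so the probe sets of this gene disagreed. With the mean of all its probe sets, Ccnd3 differed by -0.96 and passed (adjusted p = 2.71e-05).

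Of the inhibitors, Cdkn1c, which encodes p57, was at 7.92 to 8.5 in wild type (median 8.22), at 7.49, 7.10 and 7.75 in Fz4-/-, 6.99, 7.09 and 7.05 in Lrp5-/-, and 8.72, 8.35 and 8.29 in Norrin KO. Fz4-/- and Lrp5-/- arrays were below all wild type arrays, and Norrin KO arrays overlapped the upper part of wild type. The differences from wild type were -0.75 in Fz4-/- (adjusted p = 0.00704), -1.15 in Lrp5-/- (adjusted p = 3.68e-04) and 0.26 in Norrin KO (adjusted p = 0.299), each with an SE of 0.17. Without Fz4-/- array 2 the first of these did not pass (adjusted p = 0.0553). Cdkn1b, which encodes p27, was at 11.26 to 11.54 in wild type (median 11.47), at 10.91, 11.24 and 11.05 in Fz4-/-, 11.24, 11.24 and 11.35 in Lrp5-/-, and 10.62, 11.01 and 10.93 in Norrin KO. Fz4-/- and Norrin KO arrays were below wild type and Lrp5-/- array 3 was not. Cdkn1b fell by 0.36 ± 0.09 (adjusted p = 0.0111), passed in Norrin KO (-0.57, adjusted p = 0.00391) and not in Fz4-/- (-0.36, adjusted p = 0.0671) or Lrp5-/- (-0.15, adjusted p = 0.552). With the replicate number as a block, its difference in the mutant mean was -0.261 and did not pass (limma adjusted p = 0.195). Leaving out Lrp5-/- arrays 1 and 3 and wild type array 4 together, which left 1 Lrp5-/- array, gave -0.351.

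Cdkn1a, which encodes p21, was bright at 12.61 to 13.14 in wild type and 12.36 to 12.81 in the mutants, with a difference of -0.12 ± 0.10 (adjusted p = 0.464). Cdkn2c, which encodes p18, was at 7.86 to 8.39 in wild type and 7.85 to 8.58 in the mutants, with a difference of 0.03 ± 0.14 (adjusted p = 0.889). None of these 4 inhibitors rose in the mutant mean by limma, and 0 of 4 were higher at an unadjusted p under 0.05. Cdkn2a, outside the 54 genes, encodes the kinase inhibitor p16 and the protein Arf, and it rose by 1.05 ± 0.20 (adjusted p = 0.00139) and passed in each mutant, at 1.41, 0.97 and 0.78 in Fz4-/-, Lrp5-/- and Norrin KO.

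Taken genotype by genotype, the 3 comparisons use the same 6 wild type arrays and are set side by side without a correlation. In Fz4-/-, 26 of 54 genes rose and 2 fell, against 10.7% and 6.08% of all genes. In Norrin KO, 26 rose and 3 fell, against 16.7% and 9.13%. In Lrp5-/-, 11 rose and 3 fell, against 5.63% and 7.27%. The mitosis genes alone gave 19 of 29 higher in Fz4-/-, 20 in Norrin KO and 8 in Lrp5-/-, and the median difference of all 54 genes was 0.65, 0.71 and 0.38 in that order. Leaving out Lrp5-/- array 2 reduced the 14 calls in Lrp5-/- to 8.

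Differences between mutants were tested on their own. For Fz4-/- against Lrp5-/-, limma called 0 of 54 genes, as did the fit with a trended and robust spread, where 0.159% and 0.066% of all genes were higher and lower. At an unadjusted p under 0.05, 18 of the 54 were higher in Fz4-/- and 0 lower, and the median difference was 0.40 against 0.06 over all genes. The share of all genes at that unadjusted threshold was not counted, here or in the next comparison, so these unadjusted counts have no background beside them. For Fz4-/- against Norrin KO, 1 gene was lower (1.85% of the 54) and 0 higher, against 1.43% and 0.896% of all genes, with 4 lower and 2 higher at an unadjusted p under 0.05. That gene was Cdkn1c, which was lower in Fz4-/- by -1.01 ± 0.20 (adjusted p = 0.0224); the call ended without Fz4-/- array 1 (adjusted p = 0.0737), Fz4-/- array 2 (0.091) or Norrin KO array 1 (0.0889), and 2 genes passed without Norrin KO array 2.

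Norrin KO against Lrp5-/- gave 8 genes higher and 2 lower (14.8% and 3.70% of the 54), against 9.5% and 2.43% of all genes. These shares lie near those over all genes, and whether they differ was not tested. Higher in Norrin KO were Aurkb (1.11), Plk1 (0.85), Nusap1 (1.49), Prc1 (1.21), Cdc6 (1.10), E2f2 (0.82), Ccnd1 (0.82) and Cdkn1c (1.41). Lower were the brightest probe sets of Top2a (-1.56) and Kif11 (-1.57). With the mean of all probe sets, Top2a differed by -0.326 (limma adjusted p = 0.252) and Kif11 by -0.097 (0.867), and neither passed. Plk1, at 6.16, 6.07 and 6.56 in Norrin KO and 5.58, 5.24 and 5.42 in Lrp5-/-, and Cdkn1c passed whichever array was left out. Cdc6, the loader of the replicative helicase, read 6.06, 6.10 and 5.76 in Norrin KO and 4.16, 5.62 and 4.83 in Lrp5-/-, with Lrp5-/- array 1 lowest of all 15 arrays. The other 8 calls each ended without at least 1 array, and both Lrp5-/- array 1 and array 3 were among those arrays for all of them but Nusap1, which ended without Lrp5-/- array 3 (adjusted p = 0.0558) or Norrin KO array 1 (0.0553). Without either of those Lrp5-/- arrays the adjusted p of the 7 genes ran from 0.0501 (E2f2) to 0.199 (Top2a). Of the 54 genes, 3 passed without Lrp5-/- array 1, 2 without Lrp5-/- array 3, 6 without Norrin KO array 1 and 3 without Norrin KO array 3. Without Lrp5-/- arrays 1 and 3 and wild type array 4 together, 0 passed, on a fit in which the lone Lrp5-/- array was assumed to vary like the other groups. On a further quantile normalization Top2a (adjusted p = 0.0556) and Prc1 (0.0727) did not pass, and with only the groups compared in the fit Cdkn1c alone passed.

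Many of these genes were dim. In wild type, 13 of 29 mitosis genes and 7 of 18 S phase genes had a mean below the lowest median of any array, 5.89, and in the mutants 5 and 4 did. A low signal on such an array holds background as well as transcript, so a log2 difference from a dim wild type level may be smaller than the change in transcript.

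Other genes of the same pathways, listed apart from the 54, were counted in the mutant mean. For all of these lists the shares over all genes are 14.0% higher and 9.91% lower. Of 50 other mitosis genes, 19 rose (38.0%) and 4 fell (8.0%), with a median of 0.43. The largest rises were Pbk, a mitotic kinase (2.27), Anln, anillin of the cleavage furrow (2.06), and Nuf2, of the kinetochore (1.81), and the largest falls were Ncaph, a condensin subunit (-1.81), Fbxo5, an inhibitor of the anaphase-promoting complex (-1.07), and Wee1, the kinase that restrains Cdk1 (-0.71). Of 38 other S phase genes, 13 rose (34.2%) and 3 fell (7.89%), with a median of 0.33, led by Tk1, thymidine kinase (1.67), Pole (1.16) and Pola2 (0.75), subunits of DNA polymerases, and by falls of Orc1, of the origin recognition complex (-1.19), Gmnn, geminin, the inhibitor of Cdt1 (-0.85), and Rpa2, which coats single-stranded DNA (-0.51).

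Of 24 other genes of G1 and the pocket proteins, 5 rose and 5 fell (20.8% each), against 14.0% and 9.91% of all genes. Myc rose by 1.98, E2f8, a repressor of the E2F family, by 1.08, and the inhibitor gene Cdkn2a by 1.05, while Ccng2, a cyclin linked to quiescence, fell by 1.00, Mycn fell by 0.73 and Cdkn2b, which encodes the inhibitor p15, fell by 0.47. Of 21 targets of p53, 3 rose (14.3%) and 9 fell (42.9%), with a median of -0.35: Tnfrsf10b (2.56), Phlda3 (1.82) and Sesn2 (0.77) rose, and the largest falls were Sesn1 (-1.59), Perp (-1.32) and Polk (-1.18). Of 14 immediate early genes, which respond to stimulation and to the handling of cells, Fosl2 rose (0.40) and 5 fell (35.7%), led by Ier2 (-0.50), Fos (-0.29) and Klf4 (-0.29).

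Markers of other cell types were read on the same arrays, because purified fractions can hold several types of dividing cell. Of 23 markers of macrophages and microglia, 14 rose (60.9%) and 2 fell (8.7%) in the mutant mean, against 14.0% and 9.91% of all genes, with Mrc1 (3.68), Cd163 (2.44), Pf4 (2.00) and Lyve1 (1.83), genes of perivascular macrophages, named after their values were seen, among the rises, and P2ry12 (-0.99) and Tmem119 (-1.09), genes of microglia, the falls. Their mean signal was 7.95 to 9.41 in wild type, 9.55 to 10.10 in Fz4-/-, 9.29 to 9.87 in Lrp5-/- and 9.44 to 10.02 in Norrin KO. Itgam, which encodes CD11b, was dim on every array (4.03 to 5.44). These means, like the mitosis means, were higher in the mutants, and overlapped wild type on Lrp5-/- array 1 alone. The means of pericyte and smooth muscle markers, given below, did the same, and those of retinal neurons overlapped on Fz4-/- array 2 alone. The part of macrophages and microglia in the cell cycle results was not tested.

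The counts that follow are to be read against the same 14.0% and 9.91% of all genes. Of 12 markers of pericytes and smooth muscle, 4 rose and 1 fell (33.3% and 8.33%), and their means were 10.35 to 10.69 in wild type, 10.82 to 10.97 in Fz4-/-, 10.53 to 11.04 in Lrp5-/- and 10.70 to 10.89 in Norrin KO. Of 16 genes of endothelium as a whole, 3 rose and 5 fell (18.8% and 31.2%), with means of 11.64 to 11.84 in wild type and 11.66 to 11.92 in the mutants. Of 10 rod genes, 1 rose (10.0%), with means of 5.36 to 6.08 in wild type and 5.32 to 6.98 in the mutants, and the rod genes Pde6a (2.79 to 3.56) and Prph2 (2.82 to 3.88) were dim on every array. Of 11 genes of Müller glia and astrocytes, 2 rose and 2 fell (18.2% each), with means of 10.11 to 10.90 and 10.16 to 11.04. Of 11 genes of retinal neurons, 2 rose (18.2%), with means of 6.39 to 7.21 and 7.06 to 7.81. Of 5 red blood cell genes, 2 fell (40.0%), with means of 5.52 to 6.06 and 4.38 to 5.47, and Hba-a1 was at 2.80 to 3.48 on every array. Of 10 genes of other leukocytes, 1 rose and 1 fell (10.0% each), with means of 5.66 to 6.34 and 5.33 to 6.15. The part of these cell types, of sex makeup and of the actin gap in the cell cycle results was not tested.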

How the data were processed

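The deposited values were log2 signals of 15 Affymetrix mouse arrays, made by the authors with RMA, per the submitters' processing notes; the sources used here name neither its settings and version nor the hybridization batches. RMA corrects background, equalizes arrays and summarizes probes, which can compress differences of dim genes. Of 45101 probe sets, 34958 carried exactly 1 gene symbol in GEO's platform annotation, 932 several and 9211 none. The brightest singly named probe set over all arrays stood for each of 18194 genes. Means of the 4 groups were fitted over 15 arrays in limma 3.58.1 (R 4.3.3; lmFit, contrasts.fit, eBayes), with Benjamini-Hochberg adjustment over all genes of a contrast and a threshold of 0.05; single probe sets were adjusted over all probe sets. No dim filter was applied. On simulated arrays the fit was tested with known changes.

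Members and lists were chosen with earlier results of these data known. Named were the 10 mitosis and 6 S phase genes with the largest differences past the threshold, all D cyclins and inhibitors, Mki67, Top2a, Pcna, Mcm2 and Cdk1, genes differing between mutants or with opposed probe sets, and 3 each way of the other lists; other members are named beside their counts. Alternatives were further scaling, a dim filter, other probe set rules and fits, a 2-fold minimum, the replicate number as a block and arrays left out. Deviations from the group means on same-numbered arrays of different groups had correlations from -0.238 to 0.381. Arrays with different numbers were not compared, so whether the replicate numbers pair the arrays was not settled.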

Additional observations from a re-analysis of the deposited data

Results flagged for a closer look

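Differences between 2 mutants that passed the limma test of the difference itself were set apart for a closer look, as log2 differences. In Norrin KO against Lrp5-/-, 14.8% of the 54 genes were higher and 3.70% lower, against 9.5% and 2.43% of all genes. In Fz4-/- against Norrin KO, 1.85% were lower, against 1.43% of all genes. Member shares in both comparisons thus lie near those over all genes, and whether they differ was not tested. Cdkn1c, the gene of p57, differed by -1.007 between Fz4-/- and Norrin KO. In Norrin KO against Lrp5-/-, Cdkn1c differed by 1.409 and Ccnd1 by 0.817. Of the mitosis genes, Aurkb differed by 1.113, Plk1 by 0.851, Nusap1 by 1.485, Prc1 by 1.206, and the brightest probe sets of Top2a by -1.564 and of Kif11 by -1.573. Of the S phase genes, Cdc6 differed by 1.103 and E2f2 by 0.821. With the mean of all probe sets, Top2a differed by -0.326 (limma adjusted p = 0.252) and Kif11 by -0.097 (0.867). By that rule Nusap1 (0.127), Ccnd1 (0.088) and E2f2 (0.0576) did not pass either. Of these 11 differences, 9 ended without at least 1 array, and those of Plk1 and Cdkn1c in Norrin KO against Lrp5-/- did not.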

How the results depend on the processing

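With genes above the median gene only, 27 of the 54 genes and 11 of the 29 mitosis genes could be tested. Calls among those tested were 18 in the mutant mean, 16 in Fz4-/-, 9 in Lrp5-/-, 14 in Norrin KO and 6 in Norrin KO against Lrp5-/-, with 8, 8, 5 and 8 mitosis genes higher in the first 4. Shares over all genes were not counted for the settings of this section. A 2-fold minimum left 19 calls in the mutant mean, 8 in Lrp5-/- and 3 S phase genes. Without Lrp5-/- arrays 1 and 3 and wild type array 4 together, 7 calls were left in Lrp5-/-, 2 in Fz4-/- against Norrin KO, 0 in Norrin KO against Lrp5-/- and 3 S phase genes higher, with 1 Lrp5-/- array assumed to vary like the other groups. Fitting only the groups compared gave 0 calls in Fz4-/- against Norrin KO and 1 in Norrin KO against Lrp5-/-. The mean of all probe sets gave 6 in the latter and turned Top2a to 0.360 and Kif11 to 0.696 in the mutant mean, where it also ended the call of E2f1 (0.323, adjusted p = 0.0641) and added calls of Ccnd3 (-0.955, adjusted p = 2.71e-05) and Mcm2 (0.586, adjusted p = 0.0304). With the replicate number as a block, 22 members were called in the mutant mean, all of them among the 33. That fit gave 3 S phase genes higher and 0 calls in Fz4-/- against Norrin KO. Replicate numbers 4 to 6 occurred in wild type alone, so those arrays did not enter its comparison with the mutants. Whether the numbers pair the arrays was not settled. Leaving out each array in turn gave 29 to 34 calls in the mutant mean, 20 to 30 in Fz4-/-, 8 to 15 in Lrp5-/-, 21 to 33 in Norrin KO, 0 to 2 in Fz4-/- against Norrin KO and 2 to 14 in Norrin KO against Lrp5-/-, with 19 to 21, 15 to 20, 5 to 9 and 15 to 22 mitosis genes higher in the first 4 and 4 to 8 S phase genes higher in the mutant mean. Centring each array on its median ended the calls of Rrm2 (adjusted p = 0.0579) and Plk1 (0.0607) in the mutant mean, and a further quantile normalization ended those of Top2a (0.0556) and Prc1 (0.0727) in Norrin KO against Lrp5-/-; each median shift of all genes stayed within 0.1. Beyond the smaller number of genes or arrays in a fit, the cause was not tested. Dim signals and 3 arrays per mutant limit the precision.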
